A study of Mus musculus with 12 samples.

Results

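The genes described here are 6 components of the renin-angiotensin system, Agt, Ren1, Ace, Agtr1a, Agtr2 and Atp6ap2. They were chosen by name, as the genes whose symbol in the deposited count table equals any of these, and all 6 were found among its 36186 genes. RNA was sequenced from whole kidneys of mouse embryos at E18.5, in 12 libraries with 3 of each genotype. All embryos were of a mixed background of 129 and CD1 strains. The study asked how the kidney forms when groups of neighbouring Hox genes are mutated together. The groups were wild type, Hoxa-/- Hoxc+/-, Hoxa+/- Hoxc-/- and the double homozygous Hoxa-/- Hoxc-/-, where Hoxa stands for Hoxa9, Hoxa10 and Hoxa11 on the same chromosome and Hoxc for Hoxc9, Hoxc10 and Hoxc11. Libraries are named here by genotype and embryo number, and those of Hoxa+/- Hoxc-/- kidneys by title. The labels say nothing more about the origin of the replicates, so p-values measure the spread between these samples. A separate sequencing run held the 3 Hoxa+/- Hoxc-/- libraries, so for that genotype run and genotype cannot be told apart. The labels give the double mutants as homozygous at all 6 Hox genes. The study's text reports no kidneys at E18.5 in embryos of that genotype, and small kidneys in most of those that kept a wild type copy of Hoxa11. It describes its sequenced double mutants as keeping a mutant and a wild type or 2 wild type copies of Hoxa11, while its table of changed genes gives only the former, for 2 and 1 embryos. The labels do not say which library is which, so double homozygous is used here as the name of the group and does not state its Hoxa11 genotype.

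Angiotensinogen, the product of Agt, is cut by the protease renin, and the fragment is converted to angiotensin II by angiotensin converting enzyme, the product of Ace. Angiotensin II acts through type 1 receptors, of which Agtr1a encodes the main form in the mouse kidney, and through the type 2 receptor encoded by Agtr2, which is known for its high expression in fetal mesenchyme. Renin is made in the walls of the growing renal arteries and later mainly by juxtaglomerular cells, and mice without a working system develop abnormal renal vessels and papillae.

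Total counts per library ranged from 28616878 to 47067926, so that 3 counts corresponded to between 0.0614 and 0.116 CPM (counts scaled to a common library size). Library sizes for CPM were adjusted by the TMM method over the 12 libraries. Hoxa-/- Hoxc+/- 20 stood apart from the rest. It had the fewest counts, and the mean correlation of its log2 levels with the other 11 libraries was 0.881, against 0.941 to 0.964 for the others. Its summed level of 10 proximal tubule markers was 547 CPM, the lowest of the 12 libraries, and its Gnas level of 3632 CPM was the highest. The main results that rest on it are given with and without it.

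The mutated Hox genes carry frameshifts, made by small deletions, that leave most of the transcript in place, so their RNA level does not check the labels. Hoxa10 was at 125, 152 and 165 CPM in wild type 30, 37 and 55, and at 100.3, 104 and 112 CPM in double homozygous 24, 27 and 29. It was at 153, 103 and 107 CPM in Hoxa-/- Hoxc+/- 20, 31 and 33, and at 113, 104 and 114 CPM in Hoxa+/- Hoxc-/- libraries AhCk_38, AhCk_110 and AhCk_115. Hoxc10 was at 50.2, 58.8 and 66.9 CPM in wild type, and at 37.8, 29.1 and 35.8 CPM in the double homozygous libraries, each in the same order. It was at 121, 45.3 and 41.6 CPM in Hoxa-/- Hoxc+/- and at 32.1, 36.6 and 51.6 CPM in Hoxa+/- Hoxc-/-. Of the 6 mutated genes, these were the ones that passed the test in double homozygous against wild type kidneys, and each fell there, Hoxa10 by 0.49 and Hoxc10 by 0.78 on the log2 scale, with edgeR adjusted p-values of 0.0270 and 0.0127. Over the 12 libraries, Hoxa9 lay between 23.96 and 40.8 CPM, Hoxa11 between 37.1 and 61.5, Hoxc9 between 9.16 and 32.7, and Hoxc11 between 0.892 and 2.94. The highest Hoxa9, Hoxc9, Hoxc10 and Hoxc11 values were all those of Hoxa-/- Hoxc+/- 20.

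Xist, the RNA made from the inactive X chromosome of females, was at or below 0.138 CPM in all 3 wild type libraries. It was at 190 and 253 CPM in Hoxa-/- Hoxc+/- 31 and 33 and at 336 CPM in AhCk_110. It was lower, at 72.6 and 60.1 CPM, in double homozygous 27 and 29, and at or below 0.104 CPM in the remaining mutant libraries. Sex was thus not balanced between the groups, and Agtr2 and Atp6ap2 lie on the X chromosome.

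Agt and Agtr2 were higher in double homozygous than in wild type kidneys, and no member passed the test in the other comparisons. Tests were those of edgeR over all genes with enough counts, and a gene passed when its Benjamini-Hochberg adjusted p was below 0.05. In double homozygous against wild type kidneys 2 of the 6 members passed, both higher, beside 13.7% of the 15839 genes tested and 6.31% that passed as higher. A further 7.40% of genes, and 0 members, passed as lower. Unadjusted p was below 0.05 for 3 members, beside 32.4% of all genes. All 6 fold changes were above 0 on the log2 scale, with a median of 0.49, against a median of -0.01 over all genes tested. Every comparison with wild type uses the same 3 wild type libraries.

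Agt, the only known precursor of the angiotensins, was the least abundant member. It was at 3.82, 5.17 and 5.12 CPM in wild type 30, 37 and 55, and at 11.3, 29.3 and 7.14 CPM in double homozygous 24, 27 and 29. It was at 2.97, 4.17 and 8.42 CPM in Hoxa-/- Hoxc+/- 20, 31 and 33. It was at 11.4, 3.40 and 6.37 CPM in Hoxa+/- Hoxc-/- libraries AhCk_38, AhCk_110 and AhCk_115. All 3 double homozygous values lay above the wild type values, double homozygous 27 stood far above the other 11 libraries, and the other genotypes overlapped with both. The double homozygous level was 3.38-fold that of wild type, a log2 fold change of 1.76 with a standard error (SE) of 0.48 and an edgeR adjusted p of 0.0495. Without double homozygous 27 the log2 fold change was 0.97 and the edgeR adjusted p 0.0636. Of the 6 fits that left out a library, the call was kept in that without double homozygous 29, where edgeR adjusted p was 0.0214. It was lost without wild type 30, 37 or 55 or double homozygous 24, with edgeR adjusted p-values of 0.0797, 0.133, 0.135 and 0.0794. In 8 other settings of the analysis adjusted p lay between 0.0241 and 0.193, and 3 of them kept the call. The log2 fold change was 0.15 (SE 0.40) in Hoxa-/- Hoxc+/- and 0.58 (SE 0.40) in Hoxa+/- Hoxc-/- against wild type, with edgeR adjusted p-values of 1.00 and 0.440. The latter was 0.05 without AhCk_38 and 0.92 without AhCk_110.

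Agt is made mainly by the liver and, within the kidney, by proximal tubules. Among 8 liver markers, Alb, Ahsg and Ttr rose in double homozygous against wild type kidneys, by 3.40, 3.04 and 1.56 on the log2 scale, with edgeR adjusted p-values of 0.0119, 0.0172 and 0.0125. The summed level of the 8 was 80.4, 91.1 and 52.0 CPM in wild type 30, 37 and 55, and 147, 151 and 74.7 CPM in double homozygous 24, 27 and 29. It was 96.4, 110.2 and 149 CPM in Hoxa-/- Hoxc+/- 20, 31 and 33 and 135, 70.0 and 87.2 CPM in Hoxa+/- Hoxc-/- libraries AhCk_38, AhCk_110 and AhCk_115. Within each mutant genotype, and not in wild type, these sums were in the same order as Agt. The most abundant of the 8 was Afp, with a mean of 82.5 CPM over the 12 libraries, followed by Alb with 8.54 CPM. None of the 8 was at 0 in any library. In Hoxa-/- Hoxc+/- 20, 31 and 33 Afp, at 42.7, 75.8 and 141 CPM, was in the order of Agt. Ahsg, at 6.06, 4.37 and 0.237 CPM, and Ttr, at 17.3, 3.86 and 3.11 CPM, were in the reverse order there. Alb, the leading product of hepatocytes, was at 1.09, 0.669 and 0.866 CPM in wild type and at 8.65, 15.9 and 3.02 CPM in double homozygous libraries. It was at 21.4, 16.4 and 0.369 CPM in Hoxa-/- Hoxc+/- and at 7.17, 2.17 and 24.6 CPM in Hoxa+/- Hoxc-/- libraries. Among the mutant genotypes it was in the order of Agt in double homozygous kidneys only. The summed level of proximal tubule markers was 3401, 4069.6 and 2705 CPM in double homozygous 24, 27 and 29. It was 547, 3033 and 4088 CPM in Hoxa-/- Hoxc+/- 20, 31 and 33. These sums were in the order of Agt within both genotypes, and not within wild type or Hoxa+/- Hoxc-/-. The part of liver or tubule cells in the Agt result was not tested.

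The promoter of Agt is printed because this gene passed the test, that of Ren1 because it holds a sequence of the kind bound by Hox proteins, and that of Agtr2 as the other member that passed. Promoters were taken from RefSeq on build GRCm38.p6, as 250 bases before to 50 bases after the start, and matched 5 of the 6 members. They are those of the reference strain, not of the mixed background sequenced here. They lie at chr8:124569657-124569956 on the minus strand for Agt, chr1:133350424-133350723 on the plus strand for Ren1 and chrX:21484374-21484673 on the plus strand for Agtr2. Capitals mark TATAAA, a form of the TATA box, and ATAAATCA, a sequence of the class bound by Hox proteins with their Pbx partners. Each was searched on both strands as this exact string. Other forms were not searched, so a promoter without capitals may still hold one.
Agt: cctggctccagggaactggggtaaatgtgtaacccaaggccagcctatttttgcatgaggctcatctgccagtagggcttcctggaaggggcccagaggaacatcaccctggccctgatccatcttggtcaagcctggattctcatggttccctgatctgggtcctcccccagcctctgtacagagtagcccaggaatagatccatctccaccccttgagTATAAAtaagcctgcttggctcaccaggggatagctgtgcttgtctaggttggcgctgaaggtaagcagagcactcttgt
Ren1: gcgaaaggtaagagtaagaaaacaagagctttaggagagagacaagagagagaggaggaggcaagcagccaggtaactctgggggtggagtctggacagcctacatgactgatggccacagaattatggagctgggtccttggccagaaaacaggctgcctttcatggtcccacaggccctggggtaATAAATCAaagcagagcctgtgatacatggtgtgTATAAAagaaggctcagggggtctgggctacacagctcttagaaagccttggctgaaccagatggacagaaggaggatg
Agtr2: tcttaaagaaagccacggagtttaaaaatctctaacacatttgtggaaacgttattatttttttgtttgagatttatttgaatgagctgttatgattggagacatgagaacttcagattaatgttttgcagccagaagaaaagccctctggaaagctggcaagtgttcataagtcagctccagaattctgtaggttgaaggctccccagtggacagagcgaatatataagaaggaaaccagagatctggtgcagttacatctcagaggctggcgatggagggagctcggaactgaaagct
TATAAA was found in the promoters of 3 of the 5 members, Agt, Ren1 and, on the minus strand, Ace, and in 13.62% of 32851 promoters. It lay at -30 to -25 in Agt and at -29 to -24 in Ren1, counted from the start. ATAAATCA was found in Ren1 alone among these members, at -63 to -56, and in 0.9771% of promoters. It was searched because such an element of the renin promoter has been described, so its presence there is not a finding, and neither match says that a protein was bound.

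Ren1, which encodes renin, was the most abundant member per length of transcript. It was at 378, 339 and 302 CPM in wild type 30, 37 and 55, and at 446, 525 and 273 CPM in double homozygous 24, 27 and 29. It was at 389, 292 and 335 CPM in Hoxa-/- Hoxc+/- 20, 31 and 33. It was at 437, 319 and 575 CPM in Hoxa+/- Hoxc-/- libraries AhCk_38, AhCk_110 and AhCk_115. The highest values were in AhCk_115 and double homozygous 27 and the lowest in double homozygous 29, so the spread was wider in these genotypes than in wild type and all groups overlapped. The log2 fold change against wild type was 0.29 (SE 0.22) in double homozygous, 0.39 (SE 0.20) in Hoxa+/- Hoxc-/- and 0.00 (SE 0.15) in Hoxa-/- Hoxc+/- kidneys, with edgeR adjusted p-values of 0.394, 0.316 and 1.00. None passed, which does not show that the levels were equal. With a library left out, the double homozygous value ranged from 0.08, without double homozygous 27, to 0.51, without double homozygous 29, with edgeR adjusted p-values from 0.0510 to 0.833. That of Hoxa+/- Hoxc-/- ranged from 0.16, without AhCk_115, to 0.58, without AhCk_110. Some mouse strains, 129 among them, carry Ren2, a near-identical copy of the gene, which was absent from the count table. With a mixed background the Ren1 counts could hold its reads or lose reads shared with it, so they are uncertain to that extent.

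Renin cells of the arterial wall share markers with other mural cells. Of 5 renin cell markers, the connexin gene Gja5 rose in double homozygous against wild type kidneys by 0.51 (SE 0.13) on the log2 scale. The aldo-keto reductase gene Akr1b7 fell by 0.62 (SE 0.13) and the adhesion gene Mcam by 0.27 (SE 0.07), with edgeR adjusted p-values of 0.0415, 0.0222 and 0.0368 for the 3. The summed level of the 5 was 263, 258 and 255 CPM in wild type 30, 37 and 55, and 256, 265 and 234 CPM in double homozygous 24, 27 and 29. It lay between 225 and 257 CPM in the other 6 libraries, Mcam was the most abundant, and none was at 0. The sums of these groups overlapped, as did those of Ren1. Of 8 mural and smooth muscle markers, the contractile genes Acta2, Tagln and Myh11 rose, by 0.56, 0.54 and 0.55. The summed level of the 8 was 934, 1031 and 896 CPM in wild type and 1235, 1384 and 1224 CPM in double homozygous libraries, led by Acta2. In RNA from whole kidneys, more or fewer cells of a type and more or less RNA per cell cannot be told apart.

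Ace, the converting enzyme of endothelium and of the proximal tubule brush border, varied widely between libraries of the same genotype. It was at 280.1, 101 and 72.2 CPM in wild type 30, 37 and 55, and at 303, 347 and 218 CPM in double homozygous 24, 27 and 29. It was at 23.4, 210.0 and 349 CPM in Hoxa-/- Hoxc+/- 20, 31 and 33. It was at 329, 158 and 121 CPM in Hoxa+/- Hoxc-/- libraries AhCk_38, AhCk_110 and AhCk_115. The groups overlapped because wild type 30 lay within the double homozygous range, and Hoxa-/- Hoxc+/- 20 was the lowest of all. The log2 fold change of double homozygous against wild type was 0.93 (SE 0.46), with an edgeR adjusted p of 0.202. Without wild type 30 it was 1.74 with an edgeR adjusted p of 0.00748, and over the other left-out libraries adjusted p reached 0.425. Against wild type it was 0.36 (SE 0.93) in Hoxa-/- Hoxc+/- and 0.43 (SE 0.55) in Hoxa+/- Hoxc-/- kidneys, with edgeR adjusted p-values of 1.00 and 0.698. Without Hoxa-/- Hoxc+/- 20 the former was 0.88 with an edgeR adjusted p of 0.473. Ace is among the genes that the study's table lists as changed on these same samples, as are several proximal tubule, stromal and cap mesenchyme markers, so its direction is not independent evidence.

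The level of Ace followed that of the proximal tubule markers from library to library. The summed level of the 10 markers was 3533, 1726 and 1344 CPM in wild type 30, 37 and 55, and 3401, 4069.6 and 2705 CPM in double homozygous 24, 27 and 29. It was 547, 3033 and 4088 CPM in Hoxa-/- Hoxc+/- 20, 31 and 33, and 3798, 2316 and 1816 CPM in Hoxa+/- Hoxc-/- libraries AhCk_38, AhCk_110 and AhCk_115. Wild type 30 was high and Hoxa-/- Hoxc+/- 20 low in both measures. By CPM not divided by length, the most abundant of the markers was Lrp2, which encodes the endocytic receptor megalin, and none was at 0. By edgeR 0 of the 10 passed in double homozygous against wild type kidneys, with 0 at an unadjusted p below 0.05 and 0 by DESeq2, while 9 of the 10 were above 0 with a median log2 fold change of 0.59. Among 10750 genes, those most like Ace over the 9 libraries of the shared run included Mogat2 and Keg1, with Pearson correlations of log2 levels of 0.999 and 0.998, and of 0.998 and 0.995 without Hoxa-/- Hoxc+/- 20. The part of tubule content in the level of Ace was not tested.

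**Figure D1:**
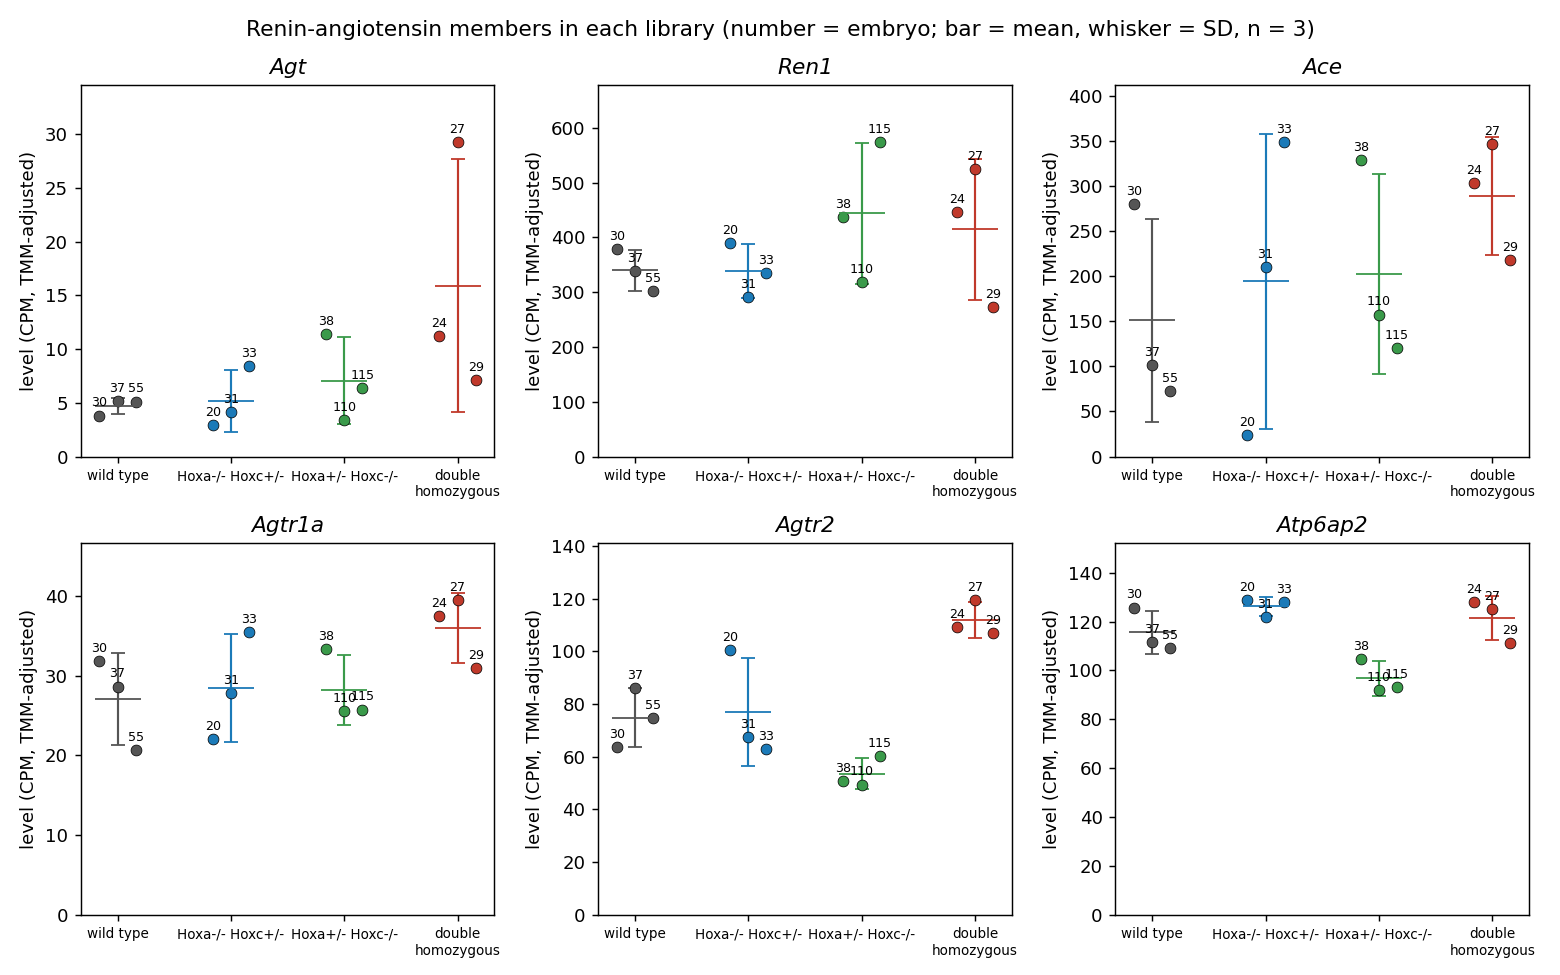
Level in CPM (y axis) of each of the 6 members in each library, by genotype (x axis). Points are libraries with their embryo number, bars the mean and whiskers the SD of 3 libraries, and Agt and Agtr2 in double homozygous kidneys lay above all wild type values, while Ren1 and Ace overlapped between all genotypes.

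Agtr1a, the main angiotensin II receptor of the kidney vessels, was at 31.9, 28.6 and 20.7 CPM in wild type 30, 37 and 55, and at 37.5, 39.5 and 31.03 CPM in double homozygous 24, 27 and 29. It was at 22.0, 27.8 and 35.5 CPM in Hoxa-/- Hoxc+/- 20, 31 and 33. It was at 33.3, 25.6 and 25.8 CPM in Hoxa+/- Hoxc-/- libraries AhCk_38, AhCk_110 and AhCk_115. Double homozygous 29 was just below wild type 30, and these were the values at which the 2 groups overlapped. The log2 fold change of double homozygous against wild type was 0.41 (SE 0.17), with an unadjusted p of 0.0405 and an adjusted p of 0.137 in the edgeR fit across all genes, and ranged from 0.25 to 0.55 with a library left out. It was 0.07 in both Hoxa-/- Hoxc+/- (SE 0.23) and Hoxa+/- Hoxc-/- (SE 0.18) against wild type, with edgeR adjusted p-values of 1.00 and 0.862. Agtr1b, the gene of the other type 1 receptor, averaged 0.885 CPM in wild type. It has a similar coding sequence, so reads that fit both genes could be missing from either count.

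Agtr2, the type 2 receptor gene, was the member with the clearest separation of double homozygous kidneys. It was at 63.8, 85.9 and 74.8 CPM in wild type 30, 37 and 55, and at 109, 119.5 and 107 CPM in double homozygous 24, 27 and 29. It was at 100.4, 67.5 and 63.1 CPM in Hoxa-/- Hoxc+/- 20, 31 and 33. It was at 51.0, 49.4 and 60.4 CPM in Hoxa+/- Hoxc-/- libraries AhCk_38, AhCk_110 and AhCk_115. The double homozygous values were the highest of the 12 libraries, those of Hoxa+/- Hoxc-/- the lowest, and Hoxa-/- Hoxc+/- 20 lay well above the other libraries of its genotype. In double homozygous against wild type kidneys the level was 1.49-fold, a log2 fold change of 0.58 (SE 0.11) with an edgeR adjusted p of 0.0186. With the log2 level of Xist as a covariate in a fit of all 12 libraries the call was kept, at 0.73 with an edgeR adjusted p of 0.0305. This covariate is graded, so it is not the same as a term for sex. Over 8 other settings, this fit among them, adjusted p lay between 1.6e-04 and 0.122, and 5 kept the call. Leaving out wild type 55 or double homozygous 24 or 27 ended it, with edgeR adjusted p-values of 0.0713, 0.0571 and 0.0536 and log2 fold changes of 0.58, 0.60 and 0.53.

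Agt and Agtr2 were the 2 of the 6 members whose double homozygous values all lay above all wild type values, beside 38.1% of all genes that did not overlap and 17.3% that were higher. With Xist as a covariate Agt had a log2 fold change of 1.67 and an edgeR adjusted p of 0.193. With all 12 libraries in 1 fit, or the 9 of the shared run, neither gene passed.

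Most stromal markers rose, as Agtr2 did, in double homozygous kidneys. Of 8 such markers 7 rose against wild type, by 0.66 for the transcription factor gene Foxd1, 0.81 for Pdgfra, 1.88 for Col1a1, 1.56 for Col3a1, 3.04 for Lum, 2.08 for Dcn and 1.98 for Postn on the log2 scale, with edgeR adjusted p-values from 0.000199 to 0.0102. The summed level of the 8 was 2908, 2981 and 2812 CPM in wild type 30, 37 and 55, and 8125, 10020.2 and 8964 CPM in double homozygous 24, 27 and 29. It was 4004, 4171 and 3153 CPM in Hoxa-/- Hoxc+/- 20, 31 and 33, and 3710.3, 4634 and 5054 CPM in Hoxa+/- Hoxc-/- libraries AhCk_38, AhCk_110 and AhCk_115. The collagen gene Col3a1 was the most abundant and none was at 0. All sums of the 3 mutant genotypes lay above those of wild type. In Hoxa+/- Hoxc-/- kidneys, where Agtr2 lay below wild type, Col3a1, Lum and Postn rose by 0.52, 1.08 and 0.69 (edgeR adjusted p 0.0375, 0.0196 and 0.0376). Of 6 cap mesenchyme markers, which label nephron progenitors, Cited1, Gdnf, Sall1 and Crym fell by 1.45, 1.73, 0.68 and 1.02 in double homozygous kidneys, with edgeR adjusted p-values from 0.0100 to 0.0368. The sum of the 6 was 383, 444 and 504 CPM in wild type and 211, 142 and 305 CPM in double homozygous libraries, led by Sall1. The part of this shift in cell types in the level of any member was not tested.

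**Figure D2:**
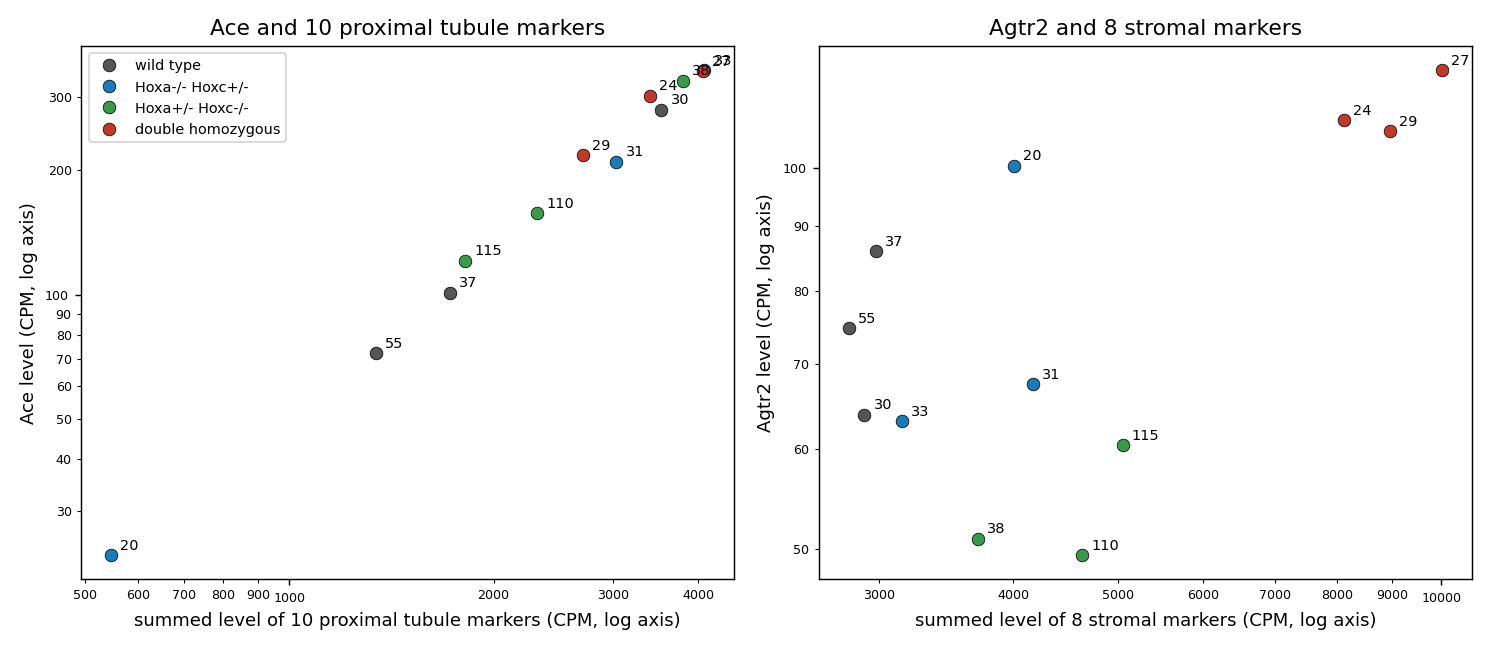
Level of Ace against the summed level of 10 proximal tubule markers (left) and of Agtr2 against that of 8 stromal markers (right), in CPM on log axes, 1 point for each of the 12 libraries with the number in its title. Ace and the tubule sum were lowest in Hoxa-/- Hoxc+/- 20, and the 3 double homozygous libraries had the highest Agtr2 and stromal values.

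Atp6ap2, which encodes the (pro)renin receptor, also an accessory subunit of the vacuolar proton pump, varied least between libraries. It was at 126, 112 and 109 CPM in wild type 30, 37 and 55, and at 128, 125 and 111 CPM in double homozygous 24, 27 and 29. It was at 129, 122 and 128 CPM in Hoxa-/- Hoxc+/- 20, 31 and 33. It was at 105, 92.1 and 93.2 CPM in Hoxa+/- Hoxc-/- libraries AhCk_38, AhCk_110 and AhCk_115. The Hoxa+/- Hoxc-/- libraries were below all others, and the other genotypes overlapped. The log2 fold change against wild type was 0.07 (SE 0.09) in double homozygous and 0.13 (SE 0.10) in Hoxa-/- Hoxc+/- kidneys, with edgeR adjusted p-values of 0.605 and 1.00.

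In Hoxa+/- Hoxc-/- against wild type kidneys 0 of the 6 members passed by edgeR, beside 2.36% of 15902 genes, with 2 members at an unadjusted p below 0.05. DESeq2 passed 1 member, Agtr2, beside 1284 genes in all. Of all genes 0.836% passed as higher and 1.53% as lower, and 21.1% had an unadjusted p below 0.05. The members at the unadjusted threshold were Agtr2 and Atp6ap2. Agtr2 had a log2 fold change of -0.47 (SE 0.13) with an edgeR adjusted p of 0.102, and without wild type 30 it was -0.58 with an adjusted p of 0.0472. Atp6ap2 had a log2 fold change of -0.25 (SE 0.09) with an edgeR adjusted p of 0.164. These were the 2 members whose groups did not overlap, beside 26.7% of all genes tested. The median log2 fold change was 0.23 over the members and 0.01 over all genes. These kidneys and those of wild type embryos were sequenced apart, so genotype and run cannot be told apart here.

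In Hoxa-/- Hoxc+/- against wild type kidneys 0 of the 6 members passed by edgeR, as did 0% of 15789 genes, with 0 members and 2.28% of genes at an unadjusted p below 0.05. DESeq2 passed 0 members and 18 genes. No member had groups that did not overlap, beside 8.35% of all genes and 3.58% that did so and were higher, and the median log2 fold change was 0.10 over the members and 0.03 over all genes. Without Hoxa-/- Hoxc+/- 20 edgeR passed 8 genes and still 0 members, with log2 fold changes of 0.41 for Agt, 0.22 for Agtr1a and -0.20 for Agtr2.

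Double homozygous and Hoxa-/- Hoxc+/- kidneys differ in their Hoxc copies and, by the study's text, also in Hoxa11, so this comparison does not isolate Hoxc. By edgeR 0 of the 6 members passed, as did 0% of 15764 genes, with 2 members and 11.3% of genes at an unadjusted p below 0.05 and 0 members and 489 genes past the threshold by DESeq2. The 2 members were Agt, with a log2 fold change of 1.64 (SE 0.61) and an edgeR adjusted p of 0.408, and Agtr2, with 0.56 (SE 0.20) and 0.399. With a library left out that of Agt ranged from 0.84, without double homozygous 27, to 2.15, without Hoxa-/- Hoxc+/- 33. Agtr2 was the 1 member whose groups did not overlap, beside 23.0% of all genes and 9.95% that did so and were higher. Without Hoxa-/- Hoxc+/- 20 edgeR passed 687 genes and Agtr2, at 0.80 with an adjusted p of 0.0142. The median log2 fold change was 0.46 over the members and -0.01 over all genes. Whether a member's change differed between the mutant genotypes beyond this comparison was not tested.

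**Figure D3:**
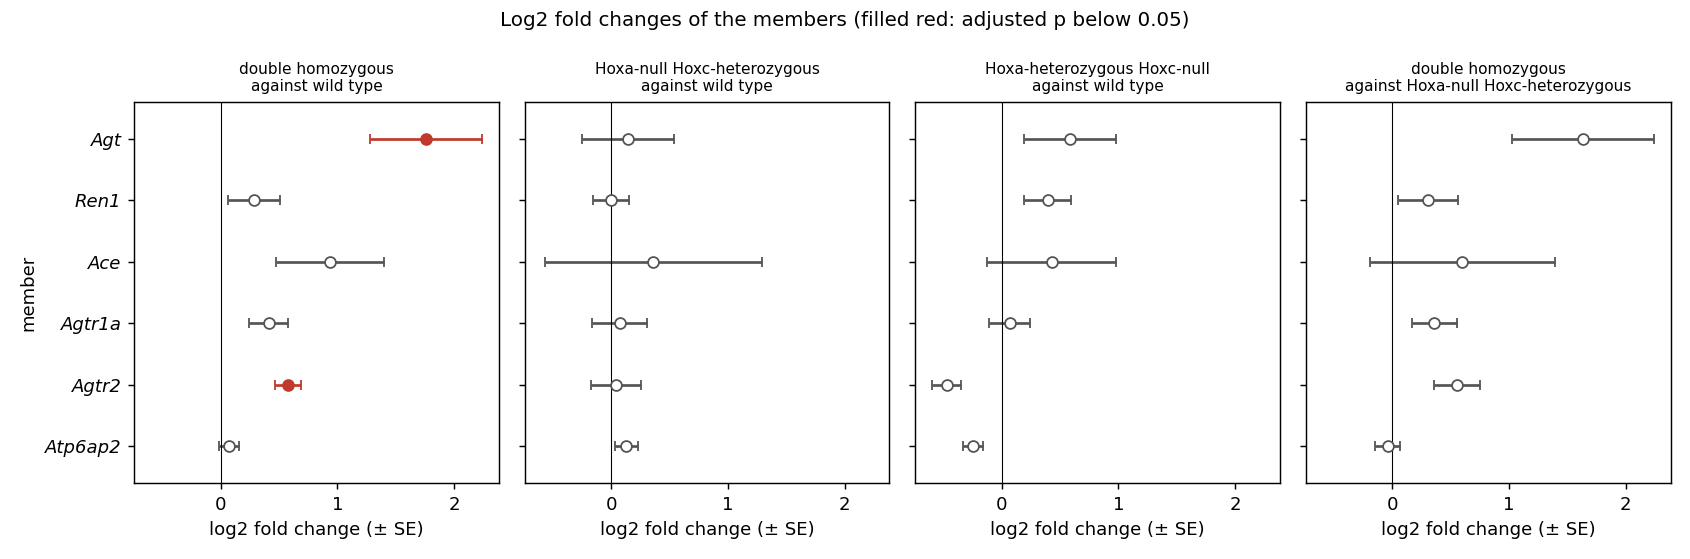
Log2 fold change (x axis) of each member (y axis) in the 4 comparisons, with whiskers of 1 SE from edgeR fits of 6 libraries each. Filled red points passed an adjusted p of 0.05, which were Agt at 1.76 and Agtr2 at 0.58 in double homozygous against wild type kidneys, and all other points were open.

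Levels of different members were compared per kilobase (kb) of annotated exons. In wild type kidneys Ren1 averaged 205 CPM per kb ± 22.9 (SD, n = 3), followed by Atp6ap2 at 44.1 ± 3.40, Ace at 28.6 ± 21.3, Agtr2 at 22.5 ± 3.32, Agtr1a at 9.72 ± 2.07 and Agt at 2.49 ± 0.405. Ace ranged from 13.7 to 53.0 CPM per kb and overlapped with Atp6ap2, Agtr2 and no other member, and the remaining neighbours in this order did not overlap. In double homozygous kidneys Ren1 averaged 250.1 CPM per kb ± 77.8 and was followed by Ace at 54.7 ± 12.4, Atp6ap2 at 46.3 ± 3.42, Agtr2 at 33.6 ± 2.02, Agtr1a at 12.9 ± 1.59 and Agt at 8.41 ± 6.24. There Ace overlapped with Atp6ap2 and Agt with Agtr1a. In Hoxa-/- Hoxc+/- kidneys the order was that of wild type, and Ace, between 4.43 and 66.1 CPM per kb, overlapped with every member but Ren1. Both rest on Hoxa-/- Hoxc+/- 20, without which Ace was at 39.7 and 66.1 CPM per kb, on average above Atp6ap2 at 46.5 and 48.9, and overlapped with no other member. Among Hoxa+/- Hoxc-/- kidneys Ace, at 38.3 ± 21.0, and Atp6ap2, at 36.9 ± 2.70, overlapped, and Agtr2 was at 16.1 ± 1.78 below both.

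The members differed in the genes whose levels they followed most closely over the 9 libraries of the shared run, which include the differences between genotypes. For Agt these were Dnajb2, Slc7a8 and 2510039O18Rik, with Pearson correlations of 0.955, 0.949 and 0.948. For Ren1 they were Gbp7, Sat1 and 1810019J16Rik (0.947, 0.919 and 0.907). For Agtr1a they were 2210404O07Rik, Plekhf2 and Uqcrc1 (0.986, 0.979 and 0.972), for Agtr2 Aldh2, Tmem109 and Map1lc3a (0.982, 0.976 and 0.976), and for Atp6ap2 Txndc17, Picalm and St7l (0.956, 0.933 and 0.912). Each set was picked as the highest of about 10750 genes with a mean of at least 10 CPM, so the values are a description. Without Hoxa-/- Hoxc+/- 20, the correlations of these genes over 8 libraries lay between 0.900 and 0.986. Among the members themselves the highest correlation was between Ace and Agtr1a, at 0.874, and the lowest between Ace and Agtr2, at -0.10. Without Hoxa-/- Hoxc+/- 20 these were 0.899 and 0.15, and that of Ace with Atp6ap2 moved from 0.202 to 0.864.

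Of the other genes of the system, which include the proteases and peptidases that make or break down angiotensins, 20 were in the count table and 16 had enough counts to test. In double homozygous against wild type kidneys 2 rose and 0 fell, beside 13.7% of all genes that passed, and the median log2 fold change was 0.31. At the unadjusted threshold there were 8, beside 32.4% of all genes, and DESeq2 passed 7, beside 3312 genes in all. Those that rose were Cma1 and Cpa3, which encode a mast cell chymase and mast cell carboxypeptidase. Cma1 was at 0.265, 0.277 and 0.347 CPM in wild type 30, 37 and 55, and at 8.57, 8.28 and 7.31 CPM in double homozygous 24, 27 and 29. It was at 0.695, 2.05 and 3.46 CPM in Hoxa-/- Hoxc+/- 20, 31 and 33, and at 1.17, 1.08 and 1.29 CPM in Hoxa+/- Hoxc-/- libraries AhCk_38, AhCk_110 and AhCk_115. Every mutant library was above every wild type library, and the double homozygous values were highest. The log2 fold change of double homozygous against wild type was 4.75 (SE 0.20) for Cma1 and 3.70 (SE 0.20) for Cpa3, with edgeR adjusted p-values of 0.000199 and 0.000377. Against wild type, these genes rose in Hoxa+/- Hoxc-/- kidneys by 2.00 and 1.31, with edgeR adjusted p-values of 0.0167 and 0.0486. There Cpa3 passed in 0 of the 6 fits that left out a library (adjusted p 0.0659 to 0.186), and Cma1 did not pass without wild type 37 or 55, AhCk_110 or AhCk_115 (0.121, 0.0711, 0.0789 and 0.0756).

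Both genes are also mast cell markers. Of 6 mast cell markers 4 had enough counts to test, and Tpsb2, which encodes a tryptase, rose with them, by 3.55 with an edgeR adjusted p of 0.00145. Kit, the receptor gene that other kidney cells also express, was the most abundant and did not pass by edgeR, with a log2 fold change of -0.24. All 4 markers tested, Kit among them, had an unadjusted p below 0.05 by edgeR, beside 32.4% of all genes. They also passed by DESeq2, beside 3312 genes in all. The summed level of the 6 was 44.6, 45.7 and 46.4 CPM in wild type and 65.1, 64.3 and 58.0 CPM in double homozygous libraries, most of it from Kit. It was 47.1, 48.0 and 47.5 CPM in Hoxa-/- Hoxc+/- and 45.9, 55.4 and 53.6 CPM in Hoxa+/- Hoxc-/- libraries. Mcpt4 was at 0 in all 3 wild type libraries, and Fcer1a was at 0 in most libraries of every genotype. The part of mast cells in these values was not tested.

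The most abundant of the other genes were Anpep, Enpep and Mme, which encode brush border peptidases that cut angiotensins. Anpep averaged 393 CPM ± 116 in wild type and 666 CPM ± 138 in double homozygous kidneys (SD, n = 3), with a log2 fold change of 0.76 (SE 0.22) and an edgeR adjusted p of 0.0590. Enpep averaged 333 CPM ± 92.7 and 486 CPM ± 89.1, and Mme 329 CPM ± 153 and 439 CPM ± 80.7, with edgeR adjusted p-values of 0.118 and 0.365. In each of the 3, as in Ace, Hoxa-/- Hoxc+/- 20 was the lowest library. In Hoxa+/- Hoxc-/- kidneys 2 of the 16 rose and 0 fell, beside 2.36% of all genes that passed. In Hoxa-/- Hoxc+/- against wild type and in double homozygous against Hoxa-/- Hoxc+/- kidneys 0 passed by edgeR, with 3 and 2 at an unadjusted p below 0.05, beside 2.28% and 11.3% of all genes. DESeq2 passed 1 and 2, beside 18 and 489 genes in all.

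Regulators of renin expression, 14 genes of cyclic AMP signalling, transcription and the macula densa, were all tested. In double homozygous against wild type kidneys 3 rose and 1 fell, beside 13.7% of all genes that passed, with a median log2 fold change of 0.29. Unadjusted p was below 0.05 for 7, beside 32.4% of all genes, and DESeq2 passed 6, beside 3312 genes in all. Ptgs2, which encodes the cyclooxygenase whose prostaglandins stimulate renin release, was at 10.6, 8.93 and 6.73 CPM in wild type 30, 37 and 55 and at 31.04, 43.7 and 25.6 CPM in double homozygous 24, 27 and 29. It was at 13.7, 11.6 and 12.8 CPM in Hoxa-/- Hoxc+/- and at 12.9, 5.30 and 12.03 CPM in Hoxa+/- Hoxc-/- libraries. All double homozygous values were above those of the other 9 libraries, and the log2 fold change against wild type was 1.94 (SE 0.23) with an edgeR adjusted p of 0.00431. It passed in every left-out fit and in all 8 other settings.

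The others past the threshold moved less. Ptger4, the gene of a prostaglandin receptor, rose by 0.68 (SE 0.16) and Gja5, the connexin of renin cells, by 0.51 (SE 0.13). Ep300, a transcriptional coactivator, fell by 0.26 (SE 0.06), with edgeR adjusted p-values of 0.0303, 0.0415 and 0.0365 for the 3. Ptger4 averaged 6.93 CPM ± 0.720 in wild type and 11.1 CPM ± 1.79 in double homozygous kidneys (SD, n = 3). Gja5 averaged 32.6 CPM ± 2.72 and 46.6 CPM ± 7.82. Leaving out any of wild type 37, wild type 55, double homozygous 24 or double homozygous 27 ended the calls of Ptger4, Gja5 and Ep300, and that of Ep300 was also ended without double homozygous 29, with edgeR adjusted p-values from 0.0603 to 0.140 over these fits. The most abundant regulators, Gnas, Adcy6 and Rbpj, did not pass, with log2 fold changes of 0.23, -0.09 and 0.22 and edgeR adjusted p-values of 0.184, 0.598 and 0.0545. In Hoxa-/- Hoxc+/- and Hoxa+/- Hoxc-/- against wild type, and in double homozygous against Hoxa-/- Hoxc+/- kidneys, 0 of the 14 passed by edgeR, with 1, 5 and 4 at an unadjusted p below 0.05, beside 2.28%, 21.1% and 11.3% of all genes. DESeq2 passed 0, 3 and 2, beside 18, 1284 and 489 genes in all.

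**Figure D4:**
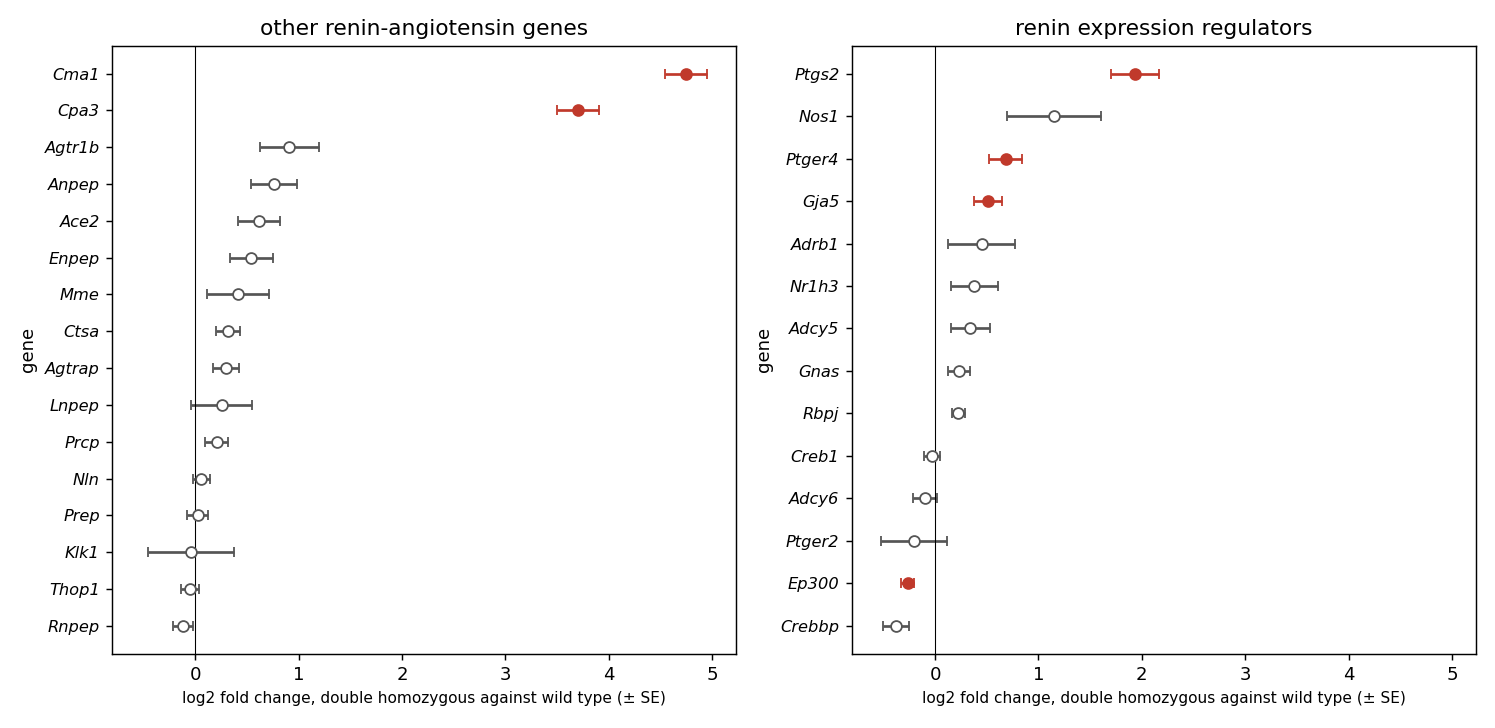
Log2 fold change in double homozygous against wild type kidneys (x axis, whiskers of 1 SE) of 16 other genes of the system (left) and 14 regulators of renin expression (right), 1 gene per line. Filled red points passed an adjusted p of 0.05, and Cma1 at 4.75, Cpa3 at 3.70 and Ptgs2 at 1.94 lay farthest from 0.

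Of 8 endothelial markers Eng, which encodes an accessory TGF-beta receptor, rose by 0.46 with an edgeR adjusted p of 0.00639, and the sums were 980.0, 1047 and 978 CPM in wild type and 1132, 1205 and 1132 CPM in double homozygous libraries, which did not overlap, led by Cdh5. Markers of the adrenal cortex and of testis and ovary, organs that lie next to the embryonic kidney, were low in sum. On average over the 12 libraries Star and Dhh were the most abundant. The sums were at most 13.4 and 2.94 CPM in any library, and 4 and 3 of their genes were at 0 in at least 1 library. Mc2r, at 8.61 CPM, led the adrenal sum of 13.4 CPM in Hoxa-/- Hoxc+/- 20. By edgeR 0 of 4 and 0 of 2 of those tested passed in double homozygous against wild type kidneys, with 2 and 0 at an unadjusted p below 0.05, beside 32.4% of all genes. DESeq2 passed 3 and 0, beside 3312 genes in all. Of the 4 adrenal markers tested 2 were above and 2, Star among them, below 0 on the log2 scale. Double homozygous 29 had an adrenal sum of 11.3 CPM, against 6.37 and 6.70 CPM in double homozygous 24 and 27. Its Cyp11a1, Hsd3b1, Cyp21a1 and Cyp11b1 levels, 1.87, 1.10, 0.879 and 0.742 CPM, were the highest of the 12 libraries. The part of adrenal tissue was not tested.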

How the data were processed

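The authors aligned reads to mm10, kept those with a single position and deposited expected counts per gene. They also deposited normalized log2 values, in which each gene's median over the libraries is 0. Expected counts were rounded here, and for 92 symbols listed more than once the entry with most reads was kept. Total counts had a median of 39328507.5 over the 12 libraries. Genes were filtered by filterByExpr (minimum count 10, minimum total 15) and each comparison fitted on its own 6 libraries, using TMM and the quasi-likelihood test (edgeR 4.0.16, R 4.3.3). P-values were adjusted by the Benjamini-Hochberg method with a threshold of 0.05. Alternatives covered scaling, filtering, the libraries in the fit, Xist as a covariate, the test, the deposited values and leaving out each library. DESeq2 1.42.0 and limma 3.58.1 served in these, and the scripts, with Python 3.11.15 and matplotlib 3.10.9 for figures, were tested on simulated data. Exon lengths came from GENCODE M21 and promoters and positions from RefSeq on GRCm38.p6. Named genes were the 6 members, other pathway genes past the threshold or among the 3 most abundant of their list, the most abundant and the called markers of each list, the mutated Hox genes, Xist, and the 3 genes most correlated with each member (log2 of CPM plus 0.5, mean of at least 10 CPM), of which 1 is not reported here. Besides these, Agtr1b and Ren2 are named for their likeness in sequence to members, and Mcpt4 and Fcer1a as markers with 0 counts. Meis1 is named as the stromal marker that did not rise. Further adrenal markers are named for their levels in single libraries. Abundance within lists was ranked by mean CPM over the 12 libraries, not divided by length. Members and lists were chosen with earlier results of these data known. The floor of 3 counts covers counting error only.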

Additional observations from a re-analysis of the deposited data

How the results depend on the processing

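Other settings were scaling by RLE factors or library size only, a filter that kept every gene counted, DESeq2, all 12 or 9 libraries in the fit, Xist as a covariate, and limma on the deposited log2 values, besides leaving out each library. No paired analysis was made, because the labels do not give the litter of an embryo. The replicate numbers are those of embryos, so they do not tell whether groups shared litters. The alternatives for other pathway genes, for correlations and for counts over all genes were chosen after seeing the data. The cause was not tested for any change.

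In double homozygous against wild type kidneys the 2 members past the threshold stayed 2 with RLE factors, DESeq2 and the wider filter. They were 1 with library size only and 1 with Xist, 0 with all 12 libraries, 0 with 9 libraries and 0 with limma, and 0 to 2 with a library left out. In Hoxa+/- Hoxc-/- against wild type kidneys the members past the threshold were 1 with DESeq2 against 0 in the main fit, and 0 to 1 with a library left out. In double homozygous against Hoxa-/- Hoxc+/- kidneys they were 0 to 1 with a library left out.

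In Hoxa-/- Hoxc+/- against wild type kidneys the log2 fold change turned for Ren1 with Xist (0.25), for Ace with Xist (-0.36) and limma (-0.084), and for Agtr2 with library size only (-0.054). With a library left out it ranged from -0.39 to 0.41 for Agt, -0.12 to 0.092 for Ren1, -0.37 to 1.16 for Ace, -0.12 to 0.22 for Agtr1a and -0.20 to 0.17 for Agtr2. In Hoxa+/- Hoxc-/- against wild type kidneys it ranged from -0.12 to 1.22 for Ace and -0.10 to 0.19 for Agtr1a, and in double homozygous against Hoxa-/- Hoxc+/- kidneys from -0.075 to 0.019 for Atp6ap2.

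Over all genes, the 2171 past the threshold in double homozygous against wild type kidneys became 3312 with DESeq2, 1190.0 with all 12 libraries, 690.0 with 9, 984 with Xist, 1215 with limma, and 535 to 3386 with a library left out. The 376 in Hoxa+/- Hoxc-/- against wild type kidneys became 1284 with DESeq2, 149 with all 12 libraries, 124 with Xist, 158 with limma, and 60 to 549 with a library left out. From 0 in Hoxa-/- Hoxc+/- against wild type kidneys, DESeq2 gave 18, all 12 libraries 2, limma 1, and left-out libraries 0 to 8. From 0 in double homozygous against Hoxa-/- Hoxc+/- kidneys, DESeq2 gave 489, the wider filter 1, all 12 libraries 540.0, 9 libraries 181, Xist 646, limma 1, and left-out libraries 0 to 687.

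Of 186 log2 fold changes of the members in other settings 173 kept direction and call, 8 lost the call, 1 gained it and 4 turned. Of 144 with a library left out these were 120, 8, 3 and 13. Calls of Cma1, Cpa3 and Ptgs2 in double homozygous against wild type kidneys were kept throughout. With 3 libraries of each genotype, whole kidneys, unbalanced sex and a separate run for Hoxa+/- Hoxc-/- kidneys, the data give levels of RNA only, and protein, enzyme activity and the cells that hold each RNA were not measured.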
